A study of Mus musculus with 36 samples.

Results

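The genes described here are 8 transcription factor genes that both the primed and the naive pluripotent state use: *Pou5f1* (OCT4), *Sox2*, *Nanog*, *Sall4*, *Zfp281*, *Tcf3*, *Myc* and *Mycn*. They were chosen by name, and all 8 were listed in each of the 11 bulk RNA-seq libraries, among 50600 genes in the 4 libraries of sorted Day 3 cells and 29267 in the other 7. Mouse epiblast stem cells (EpiSCs), which are primed, were taken toward the naive state in a BMP4-induced transition (BiPNT). The libraries fall into 3 experiments: Day 3 cells sorted as c-Kit+ (n = 2) or c-Kit- (n = 2), Day 6 cells sorted as BV+SC+ (n = 2) beside EpiSCs (n = 3), and unsorted Day 3 cells with or without SGC0946 (n = 1 each). Depth, as the sum of expected counts, was 1726038 to 1841442 per sorted Day 3 library, 2444211 to 3070115 per EpiSC library, 14778809 and 18099059 in the BV+SC+ libraries, and 4776143 with and 4577685 without SGC0946.

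EpiSCs were kept in N2B27 medium with Activin A, bFGF and the tankyrase inhibitor XAV939. The induced groups shared the first 3 days in iCD1 medium (vitamin C, bFGF, LiCl, LIF and CHIR99021) with BMP4, the EZH2 inhibitor EPZ6438 and, except in the library without SGC0946, an inhibitor of the histone methyltransferase DOT1L, which was EPZ5676 or, in its place, SGC0946. The paper states that this medium also held Parnate in some experiments, which it does not name. BV+SC+ cells were then cultured for 3 more days and sorted for 2 transgenes, *Blimp1*-mVenus (BV) and *Stella*-ECFP (SC), which report *Prdm1* and *Dppa3*. That EpiSC line was made from embryonic stem cells bearing the transgenes, while the labels name no genotype or line for the 3 EpiSC libraries, which carry different names in their descriptions. The labels describe the BV+SC+ replicates as 2iJi (replicate 1) and GK15 (replicate 2) although their shared culture text gives a single second medium, and the Day 3 libraries with and without SGC0946 carry the cell type of EpiSCs, so their condition was read from the titles. Line, sort, culture and sequencing depth moved with the groups and cannot be told apart from the cell state between BV+SC+ cells and EpiSCs. For the c-Kit+ and c-Kit- replicates nothing states that they came from separate cultures, so their spread may be technical. The BV+SC+ and EpiSC replicates carry different descriptions, so their spread may include differences in culture or line. In each case p-values measure only the spread between these samples. In all these populations, fewer cells of a type and less RNA per cell cannot be told apart.

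The genes that check the labels followed them. *Kit*, which encodes the sorted receptor c-Kit, was at 4.81 and 3.24 TPM, the length-corrected share of transcripts that RSEM gives, in c-Kit- libraries and at 99.6 and 96.0 TPM in c-Kit+ libraries. *Dppa3* was listed at 0 in the 3 EpiSC libraries and at 1162 and 1202 TPM in BV+SC+ libraries, and *Prdm1* was at most 0.54 TPM in EpiSCs and at 128 TPM in both BV+SC+ libraries. *Dot1l*, which encodes the target of the inhibitor, was at 66.8 TPM with and 62.1 TPM without SGC0946, and an enzyme inhibitor need not change it. The primed epiblast markers summed to between 1315 and 1397 TPM in EpiSCs and between 39.5 and 112 TPM in BV+SC+ cells. The naive markers summed to between 26.7 and 119 TPM in EpiSCs and between 4197 and 4800 TPM in BV+SC+ cells. Most of the latter came from *Dppa5a* (2568 and 3363 TPM) and *Tdh* (807 and 641 TPM), while *Klf4* (2.85 and 9.73 TPM) and *Tbx3* (3.18 and 2.37 TPM) were low there. The germ cell markers, which include *Prdm1* and *Dppa3*, summed to between 8.08 and 10.3 TPM in EpiSCs and between 1805 and 1874 TPM in BV+SC+ cells.

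OCT4, SOX2 and NANOG bind many of the same enhancers and sustain their own genes and each other's, and OCT4 and SOX2 often bind side by side on a composite element. OCT4 and SOX2 are used by naive cells, primed cells and germ cells, whereas NANOG is known to vary between these states. SALL4 is a zinc finger partner of OCT4 and NANOG, and ZFP281 is a zinc finger factor known to favour the exit from the naive state. The symbol *Tcf3* stands for the gene of the E proteins E12 and E47. The HMG box protein that the pluripotency literature also calls TCF3, a repressor in WNT signalling, is the product of *Tcf7l1*, and its values are given separately. MYC and MYCN are closely related basic helix-loop-helix factors that pair with MAX and drive ribosome production and growth.

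In GENCODE M21 coordinates on GRCm38, all 8 genes are protein coding. *Pou5f1* lies at chr17:35506018-35510772, *Sox2* at chr3:34650405-34652461, *Nanog* at chr6:122707489-122714633 and *Sall4* at chr2:168748332-168767943. *Zfp281* lies at chr1:136624901-136630053, *Tcf3* at chr10:80409514-80433647, *Myc* at chr15:61985391-61990374 and *Mycn* at chr12:12936093-12941914. The whole of *Sox2* sits inside *Sox2ot* on the same strand. *Gm19553* overlaps *Pou5f1* by 1475 bases and *Gm14261* overlaps *Sall4* by 1801 bases, both on the opposite strand, and no setting for strand is given in the sources used here, so reads of these pairs may be shared. Outside these overlaps the longest transcript of none of the 8 had a stretch of at least 75 bases at 98% identity with the transcript of another gene, and so no such stretch was shared by *Myc* and *Mycn*.

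Promoters are shown for *Nanog*, *Sox2* and *Pou5f1*, whose products are known to regulate their own genes. These 3 genes were higher in c-Kit+ than in c-Kit- cells, as were *Sall4*, *Zfp281*, *Tcf3* and *Mycn*. The sequences are the 250 bases before the RefSeq start on GRCm38.p6, 5′ to 3′ on the strand of the gene, at chr6:122707315-122707564 for *Nanog*, chr3:34649745-34649994 for *Sox2* and chr17:35505782-35506031 for *Pou5f1*, each on the plus strand. Capitals mark matches to either strand of an octamer-like ATGCAAA, a SOX-like CATTGT and a C-rich CCCTCCCC of the kind ZFP281 is known to bind.
Nanog: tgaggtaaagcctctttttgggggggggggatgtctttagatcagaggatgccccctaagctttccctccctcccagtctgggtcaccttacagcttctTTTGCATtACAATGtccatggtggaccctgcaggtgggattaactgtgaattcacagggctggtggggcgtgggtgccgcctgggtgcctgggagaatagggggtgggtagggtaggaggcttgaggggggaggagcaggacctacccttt
Sox2: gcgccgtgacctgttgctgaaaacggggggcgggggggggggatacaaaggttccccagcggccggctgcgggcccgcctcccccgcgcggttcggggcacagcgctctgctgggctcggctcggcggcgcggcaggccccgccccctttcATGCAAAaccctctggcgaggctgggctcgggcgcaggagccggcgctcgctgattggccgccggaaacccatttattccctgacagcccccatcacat
Pou5f1: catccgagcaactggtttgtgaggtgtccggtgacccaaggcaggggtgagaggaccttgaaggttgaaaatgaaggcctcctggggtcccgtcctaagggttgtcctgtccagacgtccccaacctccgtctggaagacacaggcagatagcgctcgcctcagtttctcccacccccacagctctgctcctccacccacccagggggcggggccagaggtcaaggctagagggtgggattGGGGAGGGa

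Motifs were searched in 300-base windows, 250 bases before to 50 after each start, in which 6 of the 8 genes were present, with 8 windows in all since *Nanog* and *Pou5f1* have an additional start. Both *Nanog* windows held the octamer-like and the SOX-like word 1 base apart, a composite that overlaps both shorter words (CATTGT, any base, then ATGCAAA) and occurred in 2 of 32851 windows of all genes, which are these overlapping *Nanog* windows. The octamer-like word, in 4.63% of all windows, was also found in *Sox2*. The SOX-like word, in 12.6% of all windows, was also found, with the E-box CAGCTG, in the downstream window of *Pou5f1*, and CCCTCCCC, in 10.8%, in the upstream window of *Pou5f1* and in *Mycn*. The *Tcf3* and *Zfp281* windows held none of these, nor the E-boxes CACGTG or CAGCTG or the TCF-like CTTTGAT, which were in 7.15%, 16.3% and 3.73% of all windows. CpG dinucleotides numbered 4 in each *Nanog* window, 6 and 11 in those of *Pou5f1* and 27 in *Sox2*, against a median of 7 over all windows. A match describes letters only and shows no binding.

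Levels are compared between genes as TPM, which RSEM corrects for transcript length, and across experiments only side by side, since the gene lists and library kits differ. *Pou5f1* was the most abundant of the 8 in EpiSCs, BV+SC+ cells, c-Kit+ cells and the library with SGC0946, and in each EpiSC library its percentile among genes over 1 TPM was 99.6. In the order of means, the ranges of *Tcf3*, *Nanog*, *Sox2*, *Myc* and *Sall4* in EpiSCs, from 195 TPM down to 88.3 TPM, each overlapped the next. In BV+SC+ cells *Pou5f1* was at 1481 ± 38.9 TPM (SD, n = 2), *Sox2* followed at 407 TPM and *Nanog* at 320 TPM, and *Myc* was last at 4.21 TPM. In c-Kit- cells *Tcf3* (105 TPM) and *Myc* (97.8 TPM) overlapped at the top and *Sox2* and *Nanog* were last. Without SGC0946, *Tcf3*, *Sall4* and *Mycn* stood above *Pou5f1*.

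**Figure D1:**
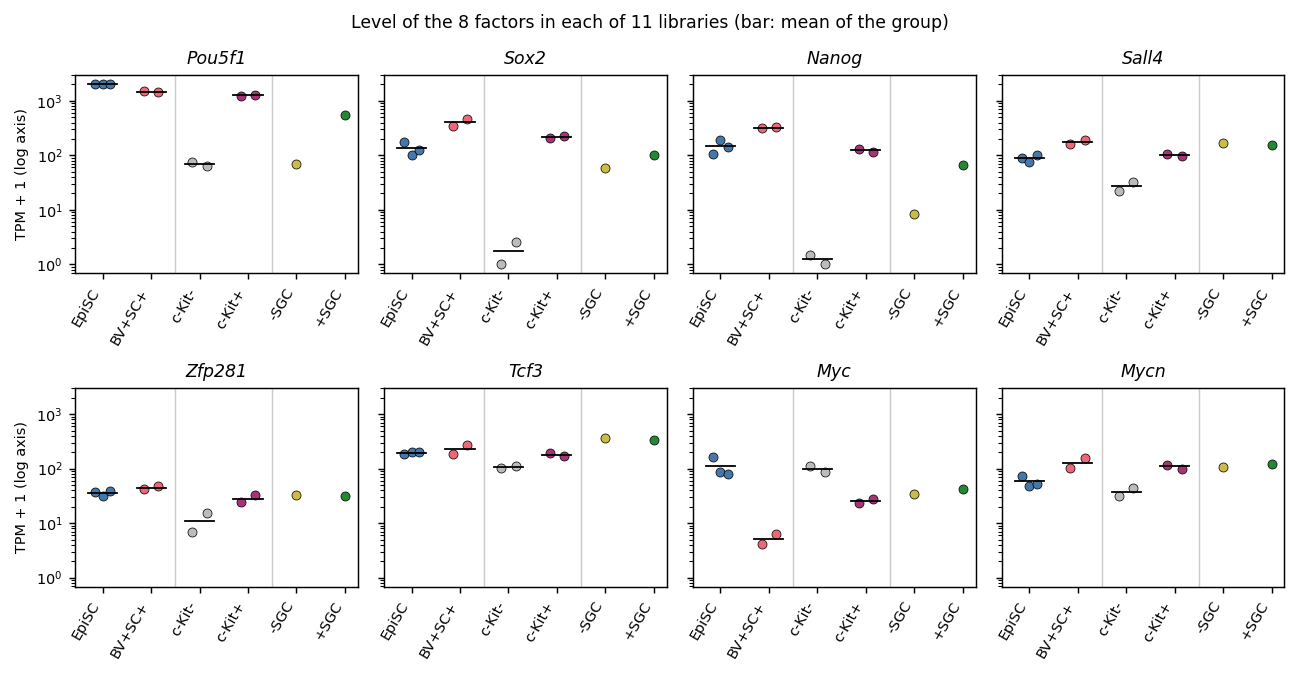
TPM + 1 on a log axis for each of the 8 genes, with 1 point per library, a bar at the mean of each group with replicates, and vertical lines between the 3 experiments. *Pou5f1*, *Sox2* and *Nanog* are lowest in c-Kit- libraries (at or under 73.9, 1.58 and 0.48 TPM), apart from *Pou5f1* without SGC0946 at 67.3 TPM, while *Myc* is lowest in BV+SC+ libraries.

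The first comparison asks how the factors differ between the c-Kit+ and c-Kit- cells into which Day 3 cultures divide. *Pou5f1*, *Sox2*, *Nanog*, *Sall4*, *Zfp281*, *Tcf3* and *Mycn* were higher in c-Kit+ cells and *Myc* was lower, each with an adjusted p under the threshold in edgeR's quasi-likelihood test (Benjamini-Hochberg adjustment over 11018 genes). Of all genes tested, 20.2% rose and 21.3% fell in this sense, and 9.98% rose and 12.9% fell by more than 2-fold. *Sox2* and *Nanog* passed the filter on low counts only through the c-Kit+ libraries, so their presence among the rises was set by the filter. Past 2-fold were 6 rises, all but *Tcf3*, and the fall of *Myc*. The trophoblast markers moved the other way to the factors, with sums of 6555 to 7197 TPM in c-Kit- and 1467 to 1724 TPM in c-Kit+ libraries, 8 of 11 tested lower in c-Kit+ cells and *Eomes* and *Cdx2* higher, and none of the 12 listed at 0 in any of these libraries. Their part in the differences was not tested.

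*Pou5f1* was at 73.9 and 62.7 TPM in c-Kit- libraries and at 1226 and 1291 TPM in c-Kit+ libraries. The groups were far apart and the replicates close. By edgeR it was 20.3-fold higher in c-Kit+ cells (log2 fold change 4.34, SE 0.12, adjusted p = 1.45e-07).

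*Sox2* was listed at 0 and 1.58 TPM, or 0 and 3 counts, in c-Kit- libraries and at 210 and 224 TPM in c-Kit+ libraries. *Nanog* was listed at 0.48 and 0 TPM, or 1 and 0 counts, in c-Kit- libraries and at 131 and 117 TPM in c-Kit+ libraries. Both were at or under 3 counts in each c-Kit- library, so neither gives a fold but a bound, computed against 3 counts per library. By this bound *Sox2* was at least 152-fold and *Nanog* at least 92.0-fold higher in the c-Kit+ group. Their adjusted p by edgeR (7.75e-07 and 8.31e-07) adds no support, since both genes passed the filter only through the c-Kit+ libraries. At this depth 3 counts are worth 1.64 and 1.67 CPM (counts scaled to the library's total) in the c-Kit- libraries, so lower levels were not detectable, and these floors cover counting error only. Unlike these factors, *Pou5f1* kept 92 and 77 counts in c-Kit- cells.

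*Sall4* was at 21.5 and 30.9 TPM in c-Kit- libraries and at 103 and 97.4 TPM in c-Kit+ libraries. There was no overlap, and it was 3.96-fold higher (log2 fold change 1.98, SE 0.16, adjusted p = 2.12e-05 by edgeR). *Zfp281* was at 5.95 and 14.4 TPM in c-Kit- and at 22.9 and 31.7 TPM in c-Kit+ libraries. Relative to their mean, the c-Kit- libraries differed more for this gene than for the other 5 with over 3 counts there, and the rise of 2.96-fold was the least certain of those past 2-fold (SE 0.34 on a log2 fold change of 1.57, adjusted p = 0.00543 by edgeR). Leaving out each library in turn gave log2 fold changes of *Zfp281* between 1.04 (without the c-Kit- library with the lower level) and 2.31, and each passed the test, with the highest adjusted p at 0.0341.

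*Tcf3*, the E protein gene, was at 101 and 109 TPM in c-Kit- and at 195 and 166 TPM in c-Kit+ libraries. The groups did not overlap, and the rise was 1.95-fold (log2 fold change 0.97, SE 0.11, adjusted p = 0.000166 by edgeR). *Tcf7l1* went without a call, at 117 and 101 TPM in c-Kit- and at 91.1 and 73.0 TPM in c-Kit+ libraries (log2 fold change -0.23, SE 0.13, adjusted p = 0.193 by edgeR), and its sign turned with an offset for GC content (0.17). The change of *Tcf3* therefore does not describe the WNT repressor of that name.

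*Myc* was at 110 and 86.0 TPM in c-Kit- libraries and at 22.0 and 26.8 TPM in c-Kit+ libraries. *Mycn* was at 30.8 and 43.0 TPM in c-Kit- libraries and at 118 and 99.6 TPM in c-Kit+ libraries. The orders are opposite and neither gene overlapped between the groups. *Myc* fell by 1.91 on the log2 scale in c-Kit+ cells (SE 0.22, adjusted p = 0.00013 by edgeR) and *Mycn* rose 3.41-fold (log2 fold change 1.77, SE 0.20, adjusted p = 0.000118). *Mycl*, the remaining member of the family, was at 11.5 and 6.95 TPM in c-Kit- and at 12.5 and 14.7 TPM in c-Kit+ libraries and did not pass the test (log2 fold change 0.67, adjusted p = 0.121 by edgeR), though it did with a GC offset (0.99, adjusted p = 0.0193) and without c-Kit- replicate 1 (1.06, adjusted p = 0.0234).

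The second comparison sets Day 6 BV+SC+ cells, labelled as primordial germ cell-like, beside the EpiSCs. *Sox2*, *Nanog*, *Sall4*, *Mycn* and *Zfp281* were higher in BV+SC+ cells, *Myc* was 24.5-fold lower, *Pou5f1* was 1.33-fold lower and *Tcf3* did not pass the test. Of 11792 genes tested, 29.6% rose and 26.5% fell at an adjusted p under the threshold, and 16.8% rose and 17.2% fell by more than 2-fold. The rises of *Sox2*, *Nanog* and *Mycn* and the fall of *Myc* were past 2-fold, which makes 3 and 1 of 8. The median log2 fold change was 0.69 over the 8 genes and 0.05 over all genes tested. The chi-square of counts between the BV+SC+ replicates was 45.4 per degree of freedom, against 2.01 to 4.46 in the other pairs. This measure grows with depth, which was several times higher there, so it does not rank the spreads. Any difference between the 2iJi and GK15 descriptions is part of the spread between these replicates. The trophoblast markers summed to between 40.6 and 56.8 TPM in EpiSCs, and to 247 and 86.8 TPM in BV+SC+ replicates 1 and 2, with 5 of 6 tested higher (*Gata2* through the BV+SC+ libraries alone) and *Cdx2* listed at 0 in the 3 EpiSC libraries, and their part in the differences was not tested.

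*Pou5f1* was at 2057, 2059 and 2078 TPM in EpiSCs and at 1509 and 1454 TPM in BV+SC+ libraries. Replicates lay closer together than for any other of the 8 genes in both groups, and the groups did not overlap. The log2 fold change was -0.41 (SE 0.08, adjusted p = 0.00284 by edgeR). With an offset for GC content the difference turned to 0.06 and lost its call (adjusted p = 0.569). At 57.6% GC, *Pou5f1* was at or above 88.6% of the tested genes with a GC value, against a median of 49.7%. The part of GC content in the difference was not tested further.

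*Sox2* was at 172, 102 and 127 TPM in EpiSCs and at 345 and 470 TPM in BV+SC+ libraries. Each BV+SC+ library was above each EpiSC library. The rise was 3.21-fold (log2 fold change 1.68, SE 0.23, adjusted p = 0.00059 by edgeR). *Nanog* was at 105, 187 and 144 TPM in EpiSCs and at 311 and 329 TPM in BV+SC+ libraries. Again there was no overlap, and the rise was 2.32-fold (log2 fold change 1.21, SE 0.20, adjusted p = 0.00154 by edgeR). With *Pou5f1* lower and these genes higher, the ratio of *Pou5f1* to *Sox2* TPM went from between 11.9 and 20.2 in EpiSCs to 4.38 and 3.09 in BV+SC+ cells. The ratio of *Pou5f1* to *Nanog* went from between 10.99 and 19.5 to 4.84 and 4.42. In the c-Kit+ libraries, counted on another gene list, these ratios were 5.84 and 5.78 to *Sox2* and 9.35 and 11.1 to *Nanog*.

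*Sall4* was at 90.3, 74.4 and 100.2 TPM in EpiSCs and at 160 and 191 TPM in BV+SC+ libraries. It did not overlap and was 1.98-fold higher (log2 fold change 0.99, SE 0.13, adjusted p = 0.000524 by edgeR). *Zfp281* was at 36.7, 30.8 and 38.5 TPM in EpiSCs and at 41.7 and 46.1 TPM in BV+SC+ libraries. It changed least among the genes called (log2 fold change 0.40, SE 0.14, adjusted p = 0.0406), and it passed the test in 5 of 15 alternatives, with log2 fold changes between 0.13 and 0.49. Without BV+SC+ replicate 2, or without EpiSC replicate 1, 2 or 3, its adjusted p was 0.0648, 0.0792, 0.134 or 0.0751, while without BV+SC+ replicate 1 the call remained (adjusted p = 0.00542).

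*Tcf3* was at 184, 199 and 202 TPM in EpiSCs and at 187 and 274 TPM in BV+SC+ libraries. BV+SC+ replicate 1 fell within the range of EpiSCs and replicate 2 above it. The log2 fold change was 0.36 (SE 0.17, adjusted p = 0.0951 by edgeR), and it came to 0.63 without BV+SC+ replicate 1 (adjusted p = 5.47e-05) and to 0.04 without BV+SC+ replicate 2. With an offset for GC content it was 1.17 (adjusted p = 0.000826), and *Tcf3*, at 61.0% GC, was at or above 97.2% of tested genes. *Tcf7l1* was at 224, 162 and 165 TPM in EpiSCs and at 80.5 and 48.3 TPM in BV+SC+ libraries. It fell without overlap by 1.49 on the log2 scale (SE 0.22, adjusted p = 0.000832 by edgeR). The ratio of *Tcf3* to *Tcf7l1* TPM was between 0.82 and 1.23 in EpiSCs and 2.32 and 5.68 in BV+SC+ cells.

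*Myc* was at 165, 85.3 and 79.02 TPM in EpiSCs and at 3.15 and 5.27 TPM in BV+SC+ libraries. EpiSC replicate 1 was about as far above the other EpiSC libraries as these were from 0, and still all 3 lay above both BV+SC+ libraries. It was 24.5-fold lower (log2 fold change -4.62, SE 0.43, adjusted p = 9.87e-05 by edgeR), on 56 and 103 counts in the deep BV+SC+ libraries. *Mycn* was at 73.9, 46.9 and 51.7 TPM in EpiSCs and at 99.8 and 153 TPM in BV+SC+ libraries. It rose 2.29-fold with no overlap (log2 fold change 1.19, SE 0.24, adjusted p = 0.00397 by edgeR). *Mycl* was at 26.9, 31.6 and 25.1 TPM in EpiSCs and at 11.3 and 25.4 TPM in BV+SC+ libraries, with a log2 fold change of -0.43 (adjusted p = 0.317) that turned to 0.08 without BV+SC+ replicate 1 and reached -1.24 without BV+SC+ replicate 2 (adjusted p = 0.000101).

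**Figure D2:**
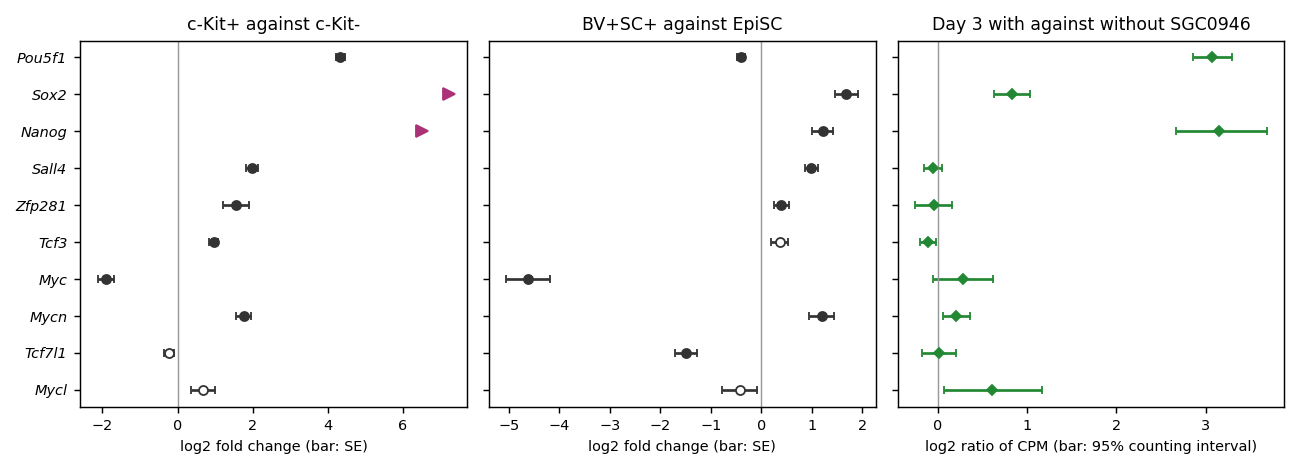
Log2 differences of the 8 genes, *Tcf7l1* and *Mycl* in the 3 comparisons. Circles are edgeR log2 fold changes with their SE (filled where the adjusted p is under the threshold), triangles are lower bounds, and diamonds are log2 ratios of CPM between single libraries with 95% counting intervals. *Myc* lies left of 0 in the first 2 panels (-1.91 and -4.62) while *Mycn* lies right of it (1.77 and 1.19).

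The relation of *Mycn* to *Myc* can be read in each library, since both are given per length. *Mycn* stood at 0.45, 0.55 and 0.65 times *Myc* in EpiSCs and at 31.7 and 29.0 times in BV+SC+ cells. It stood at 0.28 and 0.50 times in c-Kit- libraries and at 5.35 and 3.71 times in c-Kit+ libraries, and at 3.04 times with and 3.32 times without SGC0946. Neither experiment with replicates had overlap between its groups. The exact two-sided permutation test of log2(*Mycn*/*Myc*) gave p = 0.2 for BV+SC+ cells against EpiSCs and p = 0.3333 for c-Kit+ against c-Kit- cells, which are the smallest values these numbers of libraries allow. The summed TPM of *Myc*, *Mycn* and *Mycl* lay between 136 and 152 in the sorted Day 3 libraries, between 156 and 266 in EpiSCs, and at 114 and 184 in BV+SC+ libraries. *Myc* made up between 50.7% and 62.0% of that sum in EpiSCs and 2.76% and 2.87% in BV+SC+ cells.

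**Figure D3:**
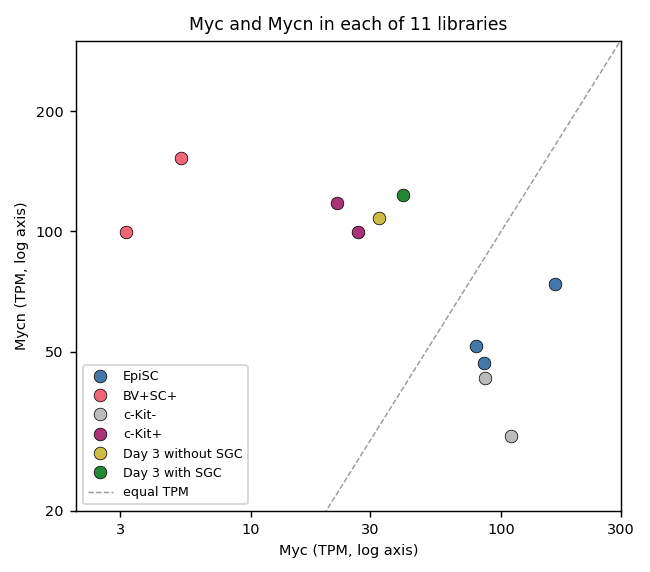
*Mycn* TPM against *Myc* TPM, both on log axes, with 1 point per library and a dashed line at equal TPM. The EpiSC and c-Kit- libraries lie below the line and the other 6 above it, with BV+SC+ libraries furthest to the left at 3.15 and 5.27 TPM of *Myc*.

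The third comparison asks what DOT1L inhibition with SGC0946 did to the factors in unsorted Day 3 cells. There was 1 library on each side, so no difference has a replicate check and no test was run. *Pou5f1* and *Nanog* were 8.16-fold and 8.76-fold higher in TPM with SGC0946, *Sox2* was 1.75-fold higher, and the other 5 lay between 0.90 and 1.25 times the level without it. On the log2(TPM + 1) scale, 6.33% of the 14038 genes above 1 TPM on at least one side were more than 2-fold higher and 3.45% more than 2-fold lower, and 2 of the 8 genes were higher. The median log2 change was 0.25 over the 8 genes and 0.01 over all genes. The germ cell markers summed to 326 TPM with and 173 TPM without SGC0946 and the trophoblast markers to 2486 and 3093 TPM. Among the latter, *Cdx2* was past 2-fold lower (log2 change -1.01, 53.0 against 108 TPM) and *Eomes* past 2-fold higher (1.35). *Eomes* was low (2.24 against 0.27 TPM) and over 1 TPM only with SGC0946. The part of these markers in the differences was not tested.

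*Pou5f1* was at 67.3 TPM, or 191 counts, without SGC0946 and at 549 TPM, or 1678 counts, with it. The log2 ratio of CPM was 3.07, with an exact 95% interval (Clopper-Pearson on the share of the counts) from 2.86 to 3.30 that covers counting error only, as all such intervals here. *Nanog* was at 7.38 TPM, or 37 counts, without and at 64.6 TPM, or 344 counts, with SGC0946 (log2 ratio 3.16, interval from 2.66 to 3.69). These intervals overlap, so at this depth the factors could not be ranked. *Sox2* was at 57.7 TPM without and at 101 TPM with SGC0946, with a log2 ratio of 0.83 (interval from 0.64 to 1.03), whose upper end is below the lower ends of the others. The ratio of *Pou5f1* to *Sox2* TPM was 1.17 without and 5.43 with SGC0946.

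*Sall4* was at 165 TPM without and 151 TPM with SGC0946, and *Zfp281* at 31.9 and 30.5 TPM. Their intervals on the log2 ratio of CPM, from -0.15 to 0.05 and from -0.25 to 0.17, include 0. *Tcf3* was at 369 and 333 TPM (interval from -0.19 to -0.02) and *Tcf7l1* at 66.0 and 66.1 TPM. *Myc* was at 32.6 TPM without and 40.6 TPM with SGC0946 (interval from -0.05 to 0.62) and *Mycn* at 108 and 123 TPM (interval from 0.06 to 0.36). The intervals of *Tcf3* and *Mycn* leave out 0, but the spread between cultures is unknown.

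For each gene the 3 genes with the most similar pattern were found over the 7 libraries counted on the same gene list, among 10597 genes with a mean of at least 5 TPM. The measure is the root mean square difference in log2(TPM + 1) after centring each gene, so that 0 is an identical pattern. *Pou5f1* was closest to *L1td1* (0.27), *Nodal* (0.28) and *Pdzd4* (0.33), while its own root mean square about its mean was 1.68. *Sox2* was closest to *B3gnt2*, *Pml* and *Chek2* (0.21 to 0.22), and *Nanog* to *Cbx7*, *Jakmip1* and *Gm26829*, at a larger distance (0.52 to 0.63). *Myc* was closest to *Lor*, *Tmem59l* and *Ddr1* (0.32 to 0.38) and *Mycn* to *Zdhhc20*, *Ccdc84* and *Appl2* (0.09 to 0.14). *Sall4* was closest to *Oaz2*, *Polr2j* and *Dynll2*, *Zfp281* to *Matr3*, *Psma6* and *Ddx42*, and *Tcf3* to *Atp13a2*, *Impdh1* and *Baiap2* (0.04 to 0.11), genes that varied little themselves. These libraries share groups and depth, so the likeness is a description.

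Genes known as targets of OCT4 and SOX2 were followed as a list of 10. Between c-Kit+ and c-Kit- cells 6 of the 10 passed the filter and 6 rose, where 20.2% of all genes rose. Among them *Dppa2* and *Lefty1* stood at or under 3 counts throughout the c-Kit- group and passed only through c-Kit+ cells. *Lefty1*, an inhibitor of Nodal signalling, was at least 119-fold higher and *Dppa2* at least 10.2-fold higher, and these calls were set by the filter. Between BV+SC+ cells and EpiSCs the list divided, with 6 of 10 higher, 3 lower and *Fgf4* not called (log2 fold change -0.00, adjusted p = 0.99). Of all genes, 29.6% rose and 26.5% fell there. Of the 6, *Zfp42*, *Dppa4* and *Dppa2* passed the filter only through the BV+SC+ libraries, so those rises were set by the filter. *Zfp42* (REX1) and *Dppa4* were at least 121-fold and 276-fold higher. *Rif1* and *Jarid2*, which had counts in both groups, rose too, as did *Fbxo15* from low levels of 1.2 to 4.31 TPM in EpiSCs. *Tdgf1* (the Nodal co-receptor Cripto) fell by 2.79 on the log2 scale, from between 666 and 694 TPM to 78.2 and 107 TPM (adjusted p = 1.26e-05), *Lefty1* fell by 1.87 (adjusted p = 0.00668) and *Utf1* fell as well. Without BV+SC+ replicate 1 or 2 the change of *Lefty1* was -2.90 or -1.27. With SGC0946, 5 of 8 measured targets were past 2-fold higher, where 6.33% of all genes were. The largest were *Lefty1* (46.6 against 3.40 TPM) and *Tdgf1* (41.2 against 3.03 TPM). Of the 5, *Dppa4* (3.69 against 0.68 TPM) and *Fbxo15* (5.21 against 0.98 TPM) were over 1 TPM only with SGC0946, so they were counted through that library alone.

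Relatives of the factors numbered 21, from the POU, SOX, SALL, E protein and TCF/LEF families, with the ID genes, whose products bind and inhibit E proteins, and *Zfp148*, a zinc finger gene related to *Zfp281*. Between c-Kit+ and c-Kit- cells 7 of 19 tested rose and 4 fell, where 20.2% and 21.3% of all genes did so. *Sox3*, which like *Sox2* belongs to the SOXB1 group, rose from 2.59 and 3.15 TPM to 146 and 155 TPM (log2 fold change 5.82, adjusted p = 5.82e-07 by edgeR). With such low c-Kit- levels *Sox3* passed the filter through c-Kit+ libraries. *Sall1* rose 4.24-fold. *Pou3f1* (OCT6) fell by 3.45 and *Sox17* by 3.02 on the log2 scale (adjusted p = 0.000142 and 0.00531). Without c-Kit+ replicate 1 or 2 these were -4.88 or -2.75 for *Pou3f1* and -4.77 or -2.25 for *Sox17*, and without c-Kit- replicate 1 or 2 *Sox17* was at -3.40 or -2.56. Between BV+SC+ cells and EpiSCs 5 of 19 rose and 8 fell, where 29.6% and 26.5% of all genes did so, and *Sox15*, *Id4* and *Pou2f3* among the rises passed the filter only through BV+SC+ cells. *Sox3* fell there by 6.05 on the log2 scale (adjusted p = 9.75e-06), to 1.47 and 0.61 TPM from between 66.3 and 77.8 TPM, in the samples in which *Sox2* rose. *Pou3f1* fell by 7.07 (adjusted p = 2.36e-05). Without BV+SC+ replicate 1 or 2, *Sox3* was at -6.74 or -5.54 and *Pou3f1* at -6.44 or -8.35. *Sox15* was at least 36.1-fold higher, and *Id4* at least 11-fold. With SGC0946, 1 of 20 was past 2-fold, *Sox15* at 19.1 against 3.68 TPM. Of all genes, 6.33% were past 2-fold higher there and 3.45% lower.

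Proteins that work with the core factors made a list of 19. In c-Kit+ cells 9 of 18 tested rose, led by *L1td1* (16.02-fold, adjusted p = 1.32e-06 by edgeR), which encodes an RNA-binding protein, and *Trim28* (2.17-fold, adjusted p = 4.54e-06), which encodes a corepressor, and *Chd4* fell by 0.36 (adjusted p = 0.00625), a call lost with a GC offset (-0.17, adjusted p = 0.0767). Of all genes, 20.2% rose and 21.3% fell. In BV+SC+ cells 5 of 19 rose and 6 fell, where 29.6% and 26.5% of all genes did so. *Nr0b1* (DAX1), tested only through its counts in BV+SC+ cells, was at least 51.9-fold higher and *Parp1* 2.02-fold higher, while *Nacc1* (NAC1) and *Thap11* (RONIN) fell by 1.34 and 0.90 on the log2 scale. With SGC0946, 2 of 19 were past 2-fold higher, where 6.33% of all genes were. These were *L1td1* (94.8 against 17.0 TPM) and *Nr0b1* (3.29 against 0.5 TPM). *Nr0b1* was low and over 1 TPM only in the library with SGC0946.

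The MYC network, the partners and competitors of MYC, held 10 other genes. In c-Kit+ cells 4 of 8 tested fell, against 21.3% of all genes, and *Mga*, a MAX partner, rose (log2 fold change 0.80, adjusted p = 0.0382 by edgeR), a call lost in 4 of 13 alternatives, among them without c-Kit+ replicate 2 (adjusted p = 0.194). *Mxd4* and *Mxi1*, which compete for MAX, fell by 2.00 and 1.57 on the log2 scale (adjusted p = 0.00401 and 0.00161). In BV+SC+ cells 2 of 10 rose and 3 fell, where 29.6% and 26.5% of all genes did so. *Max* rose 2.31-fold and *Mga* 1.91-fold (adjusted p = 0.00157 and 0.000277), and *Mlxip* and *Mnt* fell by 0.90 and 0.59, of which *Mnt* turned to 0.03 with a GC offset and lost its call. None of 10 was past 2-fold with SGC0946, where 6.33% of all genes were higher and 3.45% lower.

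Known targets of MYC in ribosome production and metabolism numbered 16. In c-Kit+ cells, where *Myc* was lower and *Mycn* higher, 10 of 15 tested rose and 2 fell, against 20.2% and 21.3% of all genes, with a median log2 fold change of 0.50 against 0.03. The nucleolar protein gene *Npm1* rose 2.32-fold, the only one past 2-fold, and *Cad*, for pyrimidine synthesis, 1.89-fold, while the lactate dehydrogenase gene *Ldha* fell by 0.67 and *Nme1* by 0.41 on the log2 scale. *Nme1* lost its call without c-Kit+ replicate 1 (adjusted p = 0.161) and by DESeq2, limma and an effective length offset. In BV+SC+ cells 3 of 16 rose, 6 fell and 7 did not pass the test, against 29.6% and 26.5% of all genes, with a median of -0.12 against 0.05. *Ldha* fell by 3.01 on the log2 scale, from between 1689 and 1954 TPM to 162 and 271 TPM (adjusted p = 3.95e-05 by edgeR), and *Srm*, for spermidine synthesis, fell by 1.07. *Nop58* and *Npm1*, both nucleolar, rose by 0.71 and 0.48 (adjusted p = 0.00277 and 0.00223). None of 16 was past 2-fold with SGC0946, where 6.33% of all genes were higher and 3.45% lower.

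**Figure D4:**
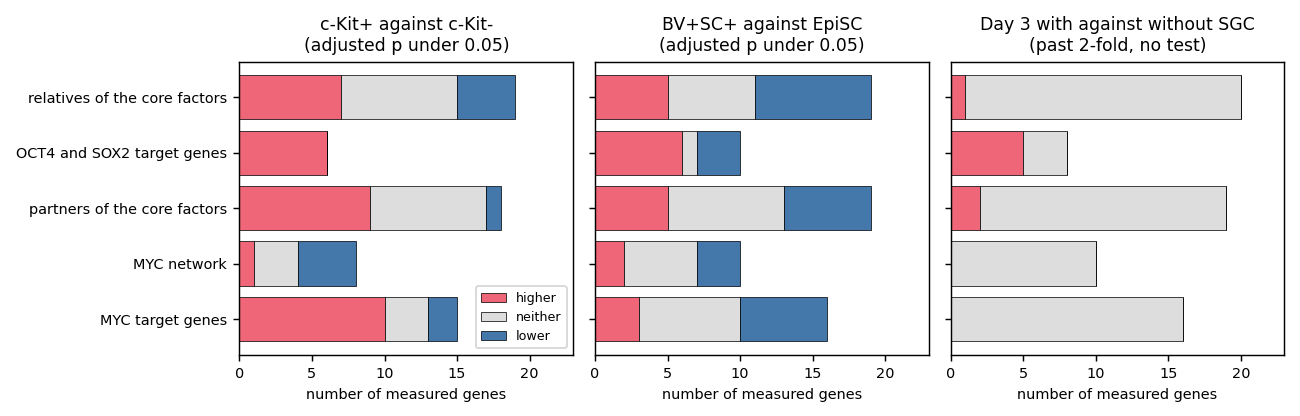
Number of measured genes of each list that were higher, lower or neither in the 3 comparisons, by adjusted p under the threshold of edgeR's test in the first 2 panels and by a 2-fold difference with no test in the third. The MYC targets hold 10 rises of 15 in c-Kit+ cells and 3 of 16 in BV+SC+ cells, and the OCT4 and SOX2 targets hold 3 falls in BV+SC+ cells. Of all genes, 20.2% rose in c-Kit+ cells, and 29.6% rose and 26.5% fell in BV+SC+ cells.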

How the data were processed

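RNA-seq of 11 libraries was used. The other samples, of scRNA-seq, ATAC-seq and ChIP-seq, were not used here. The authors aligned reads with Bowtie2 and quantified genes with RSEM (version 1.3.1 and build mm10 in the submitters' processing notes), and deposited expected counts, not normalized between libraries, and TPM, which RSEM scales by effective length. The sorted Day 3 libraries were made from mRNA and the others from RNA depleted of ribosomal RNA, so tests stayed within an experiment.

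Expected counts were rounded and tested by edgeR 4.0.16 under R 4.3.3 (glmQLFit and glmQLFTest after filterByExpr and TMM factors) within the groups compared, with Benjamini-Hochberg adjustment over all genes tested. "Rose" and "fell" mean an adjusted p under 0.05, and SE is the log2 fold change over the square root of F. Folds against groups with at most 3 counts per library are lower bounds. SGC0946 libraries were compared as log2 ratios of TPM + 1, with no test. The steps were tested on simulated data. No 2 replicates agreed within sampling noise. The genes, lists and rules were chosen with earlier results of these data known. Beside the 8 genes, *Tcf7l1*, *Mycl* and the label checks, the text names up to 2 rises and 2 falls per list and comparison, the largest with a mean TPM of at least 5, and the 3 nearest genes. Others were named after their values were seen. Symbols came from GENCODE M21, promoters from RefSeq, and shared sequence from BLAST 2.17.0+. Alternatives included DESeq2 1.42.0, limma 3.58.1, RLE factors, other filters, offsets for GC content and effective length, a replicate block, thinned counts and each replicate left out.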

Additional observations from a re-analysis of the deposited data

How the results depend on the processing

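Counting each result under each alternative, 337 of 360 recomputed values that answer a comparison kept their direction and side of the threshold (counts stayed within 1.5 times), 11 lost the call, 4 gained it, 2 turned and 6 counts moved further. For other genes and levels 887 of 916 were kept, 20 lost the call, 4 gained it and 5 turned. The block with GC offset ended the calls of *Nop58*, *Npm1*, *Srm* and *Thap11* in BV+SC+ cells, and the effective length offset that of *Thy1* in c-Kit+ cells. For BV+SC+ cells against EpiSCs, *Pou5f1* was -0.41 with a replicate block (adjusted p = 0.0608, edgeR), 0.056 with an offset for GC content and 0.074 with both. *Zfp281* was 0.46 with the block (adjusted p = 0.0964), 0.13 with the GC offset, 0.19 with both, 0.40 with an effective length offset, 0.31 by limma, 0.31 with BV+SC+ counts thinned to the EpiSC depth and 0.30 to 0.49 with a library left out. *Tcf3* was 0.41 with no filter, 1.17 with the GC offset, 1.15 with block and offset, and 0.036 to 0.63 with a library left out. *Mnt* turned to 0.028 with the GC offset and 0.00062 with block and offset, *Mycl* ranged from -1.24 to 0.080 with a library left out, and *Tcf7l1* between c-Kit+ and c-Kit- cells was 0.17 with the GC offset, with or without the block. The cause of these changes was not tested.

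Requiring 10 counts in every library took genes past 2-fold higher to 706 (of 1100) in c-Kit+ and 1164 (of 1983) in BV+SC+ cells, since it drops genes low in either group. With SGC0946 the counts of 889 higher and 484 lower became 374 and 181 with TPM over 1 in both libraries and 558 and 163 with CPM + 1. Deviations of same-numbered libraries correlated at 0.114 in the c-Kit sort, with 2 pairs, and at -0.035 and 0.0037 in the other, so the numbers were not taken to pair samples, and the replicate block changed no call of the 8 genes beyond *Pou5f1* and *Zfp281*. Depth limits low genes most in the c-Kit sort, where 3 counts are 1.63 to 1.74 CPM.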

Other observations

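The markers that set the naive, primed and germ cell states apart were measured in the same libraries as the 8 factors. Many passed the filter on low counts only through the group in which they were high, so these counts and their p-values describe the filter as well as the cells. In c-Kit+ cells, where 20.2% of all genes rose and 21.3% fell, 6 of 9 naive markers tested rose, 3 of which (*Tdh*, *Nr5a2* and *Dppa5a*) passed only through c-Kit+ libraries. *Tdh*, for threonine catabolism, and *Nr5a2*, a nuclear receptor gene, were at least 49.9-fold and 44.4-fold higher. *Tbx3* fell (log2 fold change -0.99, adjusted p = 0.0312 by edgeR), a call lost in 3 of 4 fits with a library left out, without c-Kit+ replicate 1 or 2 or c-Kit- replicate 2 (adjusted p up to 0.124). Of 5 germ cell markers tested, the rise of *Kit* was fixed by the sort and those of *Nanos3* and *Dppa3* by the filter. *Prdm1* rose from 1 and 7 counts in c-Kit- libraries, so it too passed the filter through c-Kit+ libraries. Of the primed markers, *Sox3* rose from low levels in c-Kit- libraries (2.59 and 3.15 TPM), *Otx2* rose through c-Kit+ libraries alone and *Pou3f1* fell.

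In BV+SC+ cells 9 of 10 naive markers rose, where 29.6% of all genes did so, and 5 of the 9 (*Zfp42*, *Dppa5a*, *Tdh*, *Nr5a2* and *Tbx3*) passed only through BV+SC+ libraries. *Esrrb* and *Tfcp2l1* were also low in EpiSCs, at no more than 1.28 and 1.08 TPM. *Klf4* was not called (log2 fold change -1.32, adjusted p = 0.27 by edgeR). It was at 40.4, 7.55 and 4.17 TPM in EpiSCs and at 2.85 and 9.73 TPM in BV+SC+ libraries. Of the 8 germ cell markers that rose, where 29.6% of all genes did so, *Prdm1* and *Dppa3* were the genes of the sorted reporters. *Dppa3*, *Nanos3*, *Prdm14*, *Tfap2c* and *Ddx4* stood at or under 3 counts throughout the EpiSCs and passed only through BV+SC+ libraries. *Dnd1* was also low in EpiSCs (0.37, 0.33 and 1.85 TPM), so its rise rested on BV+SC+ libraries too. *Kit* was at 6.24 to 7.27 TPM in EpiSCs. Of 6 primed markers tested 5 fell, where 26.5% of all genes fell. With SGC0946, 5 of 9 naive and 4 of 6 germ cell markers were past 2-fold higher, where 6.33% of all genes were, among them *Tdh* (log2 change 2.92), *Klf2* (2.88) and *Nanos3* (3.34), and none of 4 primed markers was past 2-fold in either direction, with no test.

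Of the primitive endoderm markers, *Sox17* and *Pdgfra* were tested and fell in c-Kit+ cells, where 21.3% of all genes fell, *Pdgfra* having passed only through c-Kit- libraries. None was tested in BV+SC+ cells. With SGC0946, *Gata6* (6.3 against 17.8 TPM) and *Gata4* (0.17 against 1.47 TPM) were past 2-fold lower, where 3.45% of all genes were. *Gata4* was low and over 1 TPM only in the library without SGC0946. Of the fibroblast markers, 3 of 3 tested fell in c-Kit+ cells, *Thy1* fell in BV+SC+ cells and none of 6 was past 2-fold with SGC0946.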
